A study of Mus musculus with 12 samples.

Results

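Major histocompatibility complex (MHC) class II genes were followed in RNA-seq libraries of white (WAT) and brown (BAT) adipose tissue, liver and quadriceps muscle. The genes were chosen by symbol and not by a filter on their values, although earlier results of these data were known: H2-Aa, H2-Ab1, H2-Eb1, Cd74, Ciita, H2-DMa and H2-DMb1. All 7 were found among the 22276 symbols of the expression table. The mice were C57BL/6J males of 17 wk of age. They had eaten normal chow (NCD) or a diet high in fat (HFD) since the age of 8 wk. From 10 wk of age and for 7 wk they received, by weekly gavage, either vehicle (veh) or narciclasine (ncls), a plant alkaloid, at 1 mg per kg. The groups were named NCD-veh, HFD-veh and HFD-ncls, and ncls was seen in these libraries on HFD alone. Each organ and group had 1 library, which gave 12 libraries in all. The number of mice behind a library and the WAT depot used are not given in the sources used here. With 1 library per organ and group there was no spread between animals, and differences between diets or treatments within an organ carry no p-value. Levels are in FPKM as the authors deposited them, a number of fragments scaled to transcript length and to the size of the library, so that genes can be compared per length.

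MHC class II molecules display peptides taken from endosomes to CD4+ T cells. Dendritic cells, macrophages and B cells carry them constitutively, and other cell types, adipocytes among them, can acquire them under interferon gamma. An alpha and a beta chain form the peptide-binding dimer, the invariant chain holds the groove until the endosome is reached, and the DM dimer exchanges the last piece of the invariant chain for peptide. Transcription of these genes depends on a set of promoter-bound factors (the RFX complex, NF-Y and CREB) and on the coactivator encoded by Ciita, which binds no DNA itself. In bulk tissue a lower level can mean fewer class II positive cells or less RNA per cell, and these cannot be told apart.

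H2-Aa, H2-Ab1 and H2-Eb1 encode classical chains, H2-DMa and H2-DMb1 the DM dimer. In mm9, the build of the deposited values, these 5 protein-coding genes lie within 181 kb of chromosome 17. H2-DMa covers 34272127 to 34276046 and H2-DMb1 34290017 to 34297168. H2-Ab1 (34400154 to 34406363) and H2-Aa (34406276 to 34424772) lie on opposite strands and share 88 bases at their ends. Whether strand was used in counting is not stated, so reads of that stretch could be given to either gene. H2-Eb1 runs from 34442828 to 34453144. Cd74, the invariant chain, lies outside this cluster, as does Ciita on chromosome 16 from 10480237 to 10527657.

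The letters upstream of 3 members are shown because the members differed together between organs (below) and are known to share promoter-bound factors. The stretches come from RefSeq start sites on GRCm38.p6, a later build than mm9, and 4 of the 7 members had such a window. Capitals mark the motifs GNAAC and GATTGG. The first resembles the start of the X box, to which RFX binds, and the second holds the inverted CCAAT letters of the Y box, to which NF-Y binds. The stretches are chr17:34287847-34287934 (minus strand) for H2-Aa, chr17:34305746-34305832 (plus) for H2-Eb1 and chr17:34153067-34153154 (plus) for H2-DMb1.
H2-Aa: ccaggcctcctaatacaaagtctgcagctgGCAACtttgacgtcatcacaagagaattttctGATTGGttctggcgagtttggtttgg
H2-Eb1: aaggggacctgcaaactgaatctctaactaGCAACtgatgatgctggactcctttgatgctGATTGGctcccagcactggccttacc
H2-DMb1: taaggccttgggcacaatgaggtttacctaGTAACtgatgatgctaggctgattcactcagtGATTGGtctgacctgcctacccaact
The motifs started at -81 and -49 in H2-Aa, at -91 and -60 in H2-Eb1 and at -94 and -62 in H2-DMb1, counted from the start site. Their starts were thus 32, 31 and 32 bases apart. H2-DMb1 and H2-Eb1 also shared the run aactgatgatgct of 13 bases, which begins inside the first motif, whereas the longest run either shared with H2-Aa was 8 bases.

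Both motifs, on either strand, in this order and with 28 to 36 bases between their starts, were found in 160 of 32851 windows of 250 bases upstream of all annotated starts (0.487%). The search was written after these 3 promoters had been read, so the 3 matches are a description. Singly the motifs were common, with GNAAC in 79.6% and GATTGG in 14.6% of windows. The remaining member with a window, H2-DMa, held no pair upstream of either of its starts. Of the class II genes outside the 7, H2-Eb2, H2-Oa and H2-Ob held the pair and H2-DMb2 did not. None of 8 windows from the class I list held it. These were both starts of H2-K1, those of H2-D1 and B2m, and those of the accessory genes Tap1, Tapbp, Psmb8 and Psmb9. As the letters and spacing were taken from class II promoters, this does not set class I promoters apart. A match gives letters and not a bound site, and the absence of one says only that these letters are not in the window.

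**Figure D1:**
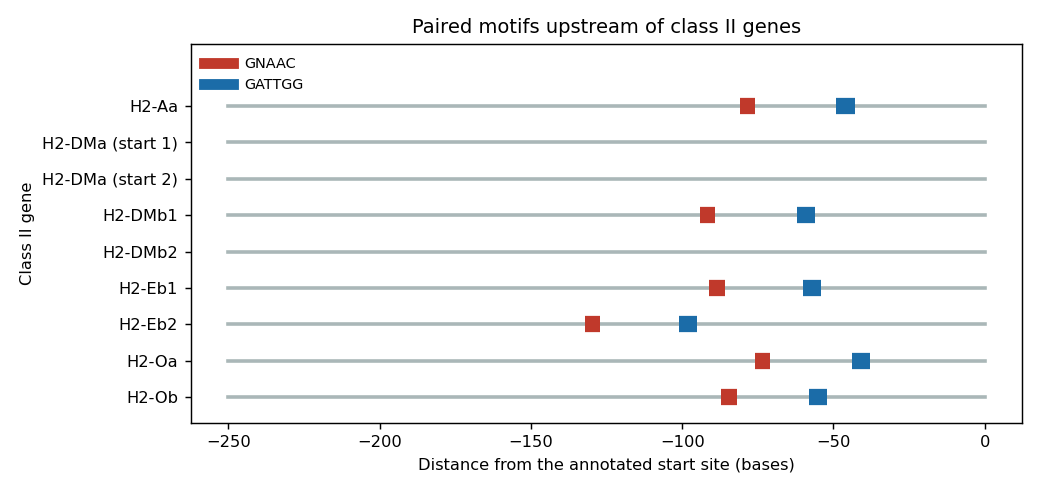
Positions of the motifs GNAAC (red) and GATTGG (blue) in the 250 bases upstream of the annotated start of class II genes (grey lines, GRCm38.p6, x axis in bases from the start). Of the 9 windows, 6 hold the pair, with the second motif starting between -101 and -44, and both windows of H2-DMa and that of H2-DMb2 hold none.

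WAT held the highest level of every member, whatever the diet. H2-Aa, the A alpha chain, was at 363 FPKM in WAT of NCD-veh mice, 469 on HFD-veh and 493 on HFD-ncls. In that order of groups, used for all values below, it was at 45.2, 43.6 and 45.4 FPKM in BAT, 14.8, 18.2 and 22.5 in liver and 8.33, 10.6 and 13.5 in muscle. The organs did not overlap. H2-Ab1, the A beta chain, followed the same order, with 239, 338 and 373 FPKM in WAT, 28.4, 29.8 and 31.9 in BAT, 13.0, 13.7 and 15.9 in liver and 7.44, 7.58 and 9.36 in muscle.

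H2-Eb1, the E beta chain, was lower than H2-Aa and H2-Ab1 in all 12 libraries. It was at 136, 181 and 203 FPKM in WAT, 22.5, 20.7 and 19.7 in BAT, 7.86, 6.46 and 8.01 in liver and 3.69, 4.04 and 5.42 in muscle. C57BL/6 mice carry a defective gene for the E alpha partner. The table lists this gene as H2-Ea-ps, at 0 in all 12 libraries. The E beta chain was thus measured in every library, its partner in none.

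Cd74, which encodes the invariant chain, was the most abundant member per length in all 12 libraries. It reached 696, 963 and 1075 FPKM in WAT, and its levels were 96.7, 88.8 and 90.8 in BAT, 47.0, 35.4 and 52.5 in liver and 20.8, 25.8 and 28.4 in muscle. Cd74 was 2.59 to 3.62 times H2-Ab1 within a library (median 2.95).

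The DM genes, the peptide editors, were lower by an order of magnitude but had the same organ at the top. H2-DMa was at 17.2, 22.6 and 27.7 FPKM in WAT, 2.19, 1.96 and 1.69 in BAT, 1.504, 0.954 and 1.34 in liver and 0.809, 0.964 and 0.832 in muscle. H2-DMb1 was at 22.8, 46.6 and 49.9 FPKM in WAT, 2.48, 2.88 and 1.88 in BAT, 1.92, 1.397 and 1.74 in liver and 0.494, 1.02 and 1.05 in muscle. Reads of H2-DMb1 could be shared with its near-identical neighbour H2-DMb2, which ranged from 0.348 to 19.6 FPKM and stood at 0.303 to 0.704 times H2-DMb1, so the split between them is uncertain.

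Ciita, the coactivator, was the scarcest member. It was at 2.33, 3.63 and 4.20 FPKM in WAT, 0.172, 0.232 and 0.197 in BAT, 0.190, 0.114 and 0.132 in liver and 0.0959, 0.0143 and 0.0655 in muscle. From the steps between low FPKM values, the libraries came to about 18500000 to 26000000 fragments. On that estimate Ciita rested on about 255 to 411 fragments in WAT, 23.4 to 30.4 in BAT and 13.6 to 23.6 in liver. In muscle it rested on about 12.6, 1.97 and 8.87, so no fold between muscle libraries is given for Ciita.

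**Figure D2:**
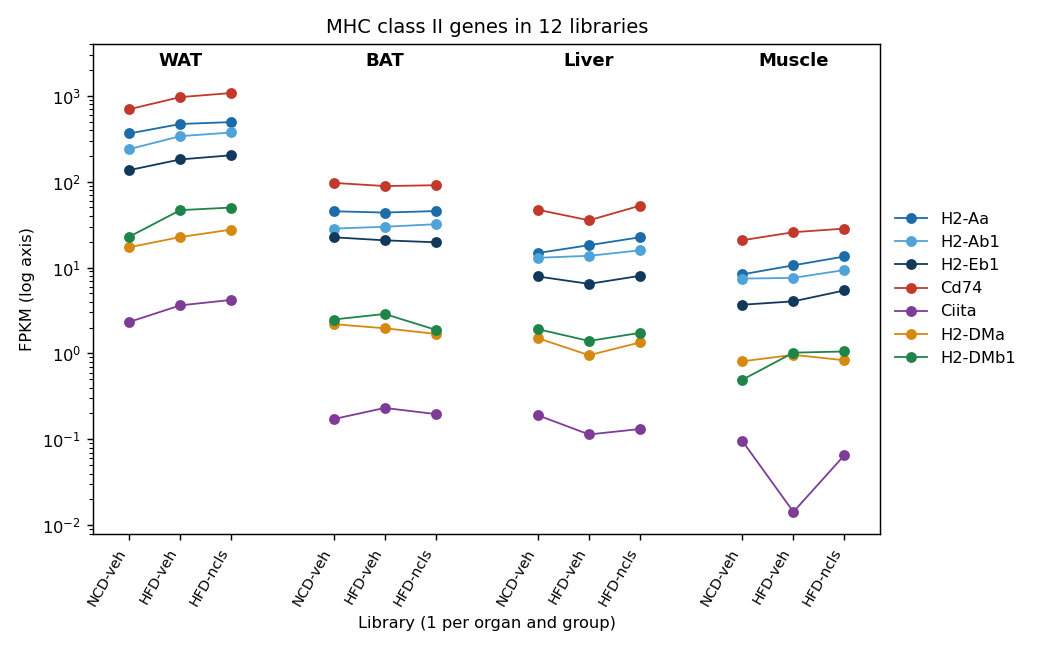
Levels of the 7 class II genes in the 12 libraries (y axis FPKM, log scale, each point 1 library, lines join libraries of 1 organ and carry no error because there are no replicates). In each gene the 3 WAT points lie above all others, from Cd74 at 696 to 1075 FPKM down to Ciita at 2.33 to 4.20 FPKM.

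Between organs the members moved as a block. Mean levels in WAT were 8.27 to 16.9 times those in BAT over the 7 members (median 10.5), 17.8 to 23.9 times those in liver (median 23.3) and 25.9 to 57.8 times those in muscle (median 39.5). The lowest WAT library was above the highest BAT library in all 7, but this held for 70.4% of all genes tested too, as it did for 67.4% of genes against liver and 71.4% against muscle. The median gene was itself 2.03-fold, 2.04-fold and 2.42-fold higher in WAT than in BAT, liver and muscle. A stricter count, chosen after this was seen, asked for a lowest WAT library over 4-fold above the highest library of the other organ. All 7 members met it against BAT, where 14.4% of genes did, against liver (23%) and against muscle (28.5%). After the libraries were rescaled to each other by the median of ratios, which lowered WAT and raised the other organs, the medians were 6.20, 13.4 and 21.6.

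Of the other organs, BAT was next. All 7 members were above muscle without overlap (48.4% of genes), and 5 were above liver (40.4% of genes), by 1.38 to 2.82-fold in the means (median 2.05). Ciita and H2-DMb1 overlapped between BAT and liver. Liver was above muscle without overlap for 6 members (44.8% of genes), with a median of 1.75-fold, and H2-DMa overlapped. No member was over 4-fold apart between these 3 organs by the lowest-to-highest count, against 9.26% of genes for BAT over liver, 9.03% for BAT over muscle and 16.9% for liver over muscle.

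A tested contrast set the 6 adipose libraries against the 6 of liver and muscle. The test was an exact two-sided permutation test on the means of log2(FPKM + 0.1) with every arrangement enumerated, adjusted by Benjamini-Hochberg over 13648 genes. The libraries of an organ differ in diet and treatment and may come from the same mice as those of other organs. The test counts the 3 libraries of an organ as separate units, although the contrast is between organs. So p describes the spread between these 12 libraries only. With organs as the units, there are too few on each side for a small p. H2-Eb1 was higher in adipose tissue by 3.38 on the log2 scale, H2-Aa by 3.32, H2-Ab1 by 3.17, Cd74 by 3.11 and H2-DMa by 2.56. For these 5 all 6 adipose libraries were above the other 6 and the exact adjusted p was 0.0105, from a raw p of 0.00216, the smallest the splits allow. H2-DMb1 was higher by 2.92 and Ciita by 2.38, with 5 of 6 adipose libraries above all others and an exact adjusted p of 0.0186 each. Of all genes, 26.2% were called higher in adipose tissue.

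The contrast rested mainly on WAT. Without the WAT libraries, a comparison chosen after seeing the data, the 6 members that reached 1 FPKM in the remaining libraries were 0.84 (H2-DMa) to 1.87 (H2-Eb1) higher in BAT than in liver and muscle on the log2 scale. The exact permutation adjusted p was then 0.0593, and 0.150 for H2-DMb1, in a design of 84 splits with a smallest raw p of 0.0119. Without the BAT libraries instead, the 7 differences were 4.13 to 4.97, at an exact permutation adjusted p of 0.0294.

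Within a library the members kept nearly fixed proportions although the level of each spanned at least 34.2-fold. H2-Aa was 1.12 to 1.59 times H2-Ab1 (median 1.41) across the 12 libraries and H2-Eb1 0.472 to 0.792 times (median 0.556). The DM pair was less tightly tied, with H2-DMb1 at 0.610 to 2.06 times H2-DMa (median 1.28). Ciita was 0.00189 to 0.0147 times H2-Ab1, the widest range of these ratios, and its lowest value came from the muscle library with about 1.97 fragments. The Pearson r between 2 members over the 12 libraries, on log2(FPKM + 0.1), lay between 0.963 (H2-Eb1 with Ciita) and 0.998 (H2-Ab1 with Cd74). These points share organs, and r describes mainly the steps between them.

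Class I genes were distributed differently over the organs. The class I list holds 9 genes, led by B2m, the light chain, H2-K1 and H2-D1, the heavy chains, and includes the peptide transporter, immunoproteasome subunits and the coactivator Nlrc5. The 9 summed to 3617 to 3801 FPKM in WAT, 862 to 957 in BAT, 2628 to 3041 in liver and 140 to 179 in muscle. The 7 class II members summed to 1476 to 2226 FPKM in WAT, 188 to 198 in BAT, 76.3 to 102 in liver and 41.6 to 58.6 in muscle. By these sums liver was near WAT for class I and near muscle for class II. B2m was the largest part of the class I sum, at 2640, 2718 and 2646 FPKM in WAT and 2033, 1846 and 1860 in liver. Single class I genes differed. H2-K1 was higher in liver (677, 533 and 551 FPKM) than in WAT (342, 417 and 482). H2-D1 was lower in liver (252, 172 and 194) than in WAT (482, 422 and 480), as was Tapbp (37.7, 29.7 and 35.2 against 84.9, 106 and 113). H2-Ab1 was 0.697 to 0.811 times H2-K1 in WAT, 0.298 to 0.386 times in muscle, 0.211 to 0.236 times in BAT and 0.0192 to 0.0288 times in liver, and these 4 ranges did not overlap.

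**Figure D3:**
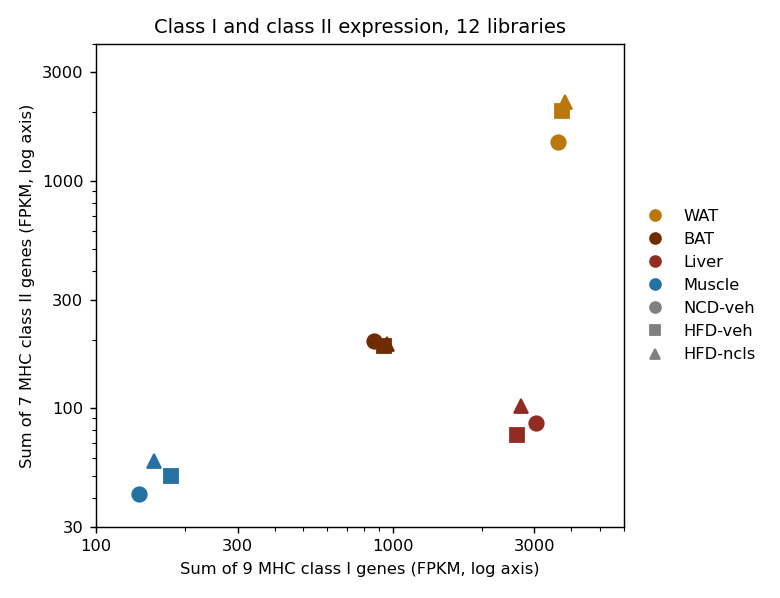
Sum of the 7 class II members (y axis, FPKM, log scale) against the sum of 9 class I genes (x axis, FPKM, log scale), 1 point per library, colours for organs and shapes for groups. The 3 liver points sit at 2628 to 3041 FPKM of class I, close to WAT, but at 76.3 to 102 FPKM of class II, between muscle and BAT.

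Organ markers were high in the organ named by the label, with summed adipocyte markers (Fabp4, Cfd, Adipoq and others) at 15119 to 24693 FPKM in WAT, hepatocyte markers at 27044 to 32123 in liver and muscle fibre markers at 66195 to 69008 in muscle. Some libraries also held RNA of another organ. In HFD-veh muscle 546 of 582 liver-enriched genes were raised, at a median of 0.567% of their liver level. HFD-ncls WAT held liver RNA at 0.218% beyond HFD-veh WAT. In HFD-veh WAT the hepatocyte markers themselves summed to 45.3 FPKM, against 6.53 in NCD-veh WAT. Muscle RNA was found at 1.71% in NCD-veh BAT and 0.691% in HFD-veh BAT, both beyond HFD-ncls BAT, and at 0.0520% in HFD-veh liver. Because class II levels in liver and muscle were low, such shares would supply at most 1.02% of any member's level in these libraries, apart from 4.51% of that of Ciita in HFD-veh muscle. These figures cover liver and muscle RNA only and leave out adipose RNA in muscle, for which larger amounts are given below.

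In WAT the class II genes were higher on HFD. All 7 members were higher in HFD-veh than in NCD-veh (52.7% of genes were), by a median of 0.47 on the scale of log2(FPKM + 0.1), where the median over all genes was 0.03. H2-DMb1 differed most, by 1.03, from 22.8 to 46.6 FPKM, and was the 1 member over 2-fold, a threshold that 5.24% of genes passed. It fell to 0.99, under 2-fold, after rescaling by the median of ratios, and was also under 2-fold with a pseudocount of 1. Ciita differed by 0.62, H2-Ab1 by 0.50, Cd74 by 0.47, H2-Eb1 by 0.41, H2-DMa by 0.40 and H2-Aa by 0.37. Of these, Ciita and H2-Ab1, with H2-DMb1, were over 1.4-fold, as were 16.3% of genes. With 1 library on each side, these are differences between libraries.

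Ncls did not bring the WAT values back towards NCD-veh. All 7 members were higher again in HFD-ncls than in HFD-veh (58.5% of genes were), by 0.07 (H2-Aa) to 0.29 (H2-DMa) and a median of 0.16, and none passed 2-fold (1.49% of genes rose and 0.214% fell so far). This comparison shares the HFD-veh library with the one before it. The order NCD-veh, HFD-veh, HFD-ncls from lowest to highest was seen for 7 of 7 members in WAT, against 27.2% of genes. In HFD-ncls against NCD-veh WAT the median difference was 0.64.

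In BAT the members hardly differed between groups. Of the 7, 3 were higher in HFD-veh than in NCD-veh (44.7% of genes were), and differences in the 6 members that reached 1 FPKM ran from -0.15 (H2-DMa) to 0.21 (H2-DMb1), none past 2-fold (2.28% of genes rose and 2.01% fell so far). Between HFD-ncls and HFD-veh BAT, H2-DMb1 was lower by 0.59, from 2.88 to 1.88 FPKM, past 1.4-fold (6.28% of genes). The remaining members with 1 FPKM differed by -0.21 (H2-DMa) to 0.10 (H2-Ab1), and none passed 2-fold (0.261% of genes rose and 1.7% fell so far). H2-Ab1 alone had the stepwise order seen in WAT (13.6% of genes).

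In liver the members did not move together on HFD. H2-Aa and H2-Ab1 were higher in HFD-veh than in NCD-veh, by 0.30 and 0.07, whereas H2-DMa was lower by 0.61, past 1.4-fold (10.5% of genes), H2-DMb1 by 0.43, Cd74 by 0.41 and H2-Eb1 by 0.28. In HFD-ncls all 7 were above HFD-veh (52.4% of genes), with Cd74 0.57 higher, past 1.4-fold (6.88% of genes), and a median of 0.31. None passed 2-fold. Of all genes 2.86% rose and 2.27% fell so far on HFD, and 1% rose and 1.31% fell with ncls. H2-Aa and H2-Ab1 had the stepwise order (19.1% of genes).

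In muscle the differences between groups were small and mostly in the direction of higher levels. Of the 7 members, 6 were higher in HFD-veh than in NCD-veh (55.1% of genes), all but Ciita with its few fragments. With ncls 6 were higher than in HFD-veh (55.5% of genes), all but H2-DMa. Over the 5 members that reached 1 FPKM the medians were 0.31 and 0.30. These 5 of the 7 had the stepwise order (19.6% of genes). H2-DMb1 reached 1 FPKM only in the HFD libraries, so the filter favoured its higher values there. H2-DMb1 differed most on HFD, by 0.92 (0.494 to 1.02 FPKM), past 1.4-fold (7.74% of genes). The value of H2-Ab1 was 0.03 there and turned to -0.00134 after rescaling. H2-DMa, under 1 FPKM in all 3 libraries and resting on about 31.1 to 38.9 fragments, was 0.809, 0.964 and 0.832 FPKM. None of the 5 passed 2-fold. Of all genes 3.14% rose and 0.97% fell so far on HFD, and 1.27% rose and 2.53% fell with ncls.

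**Figure D4:**
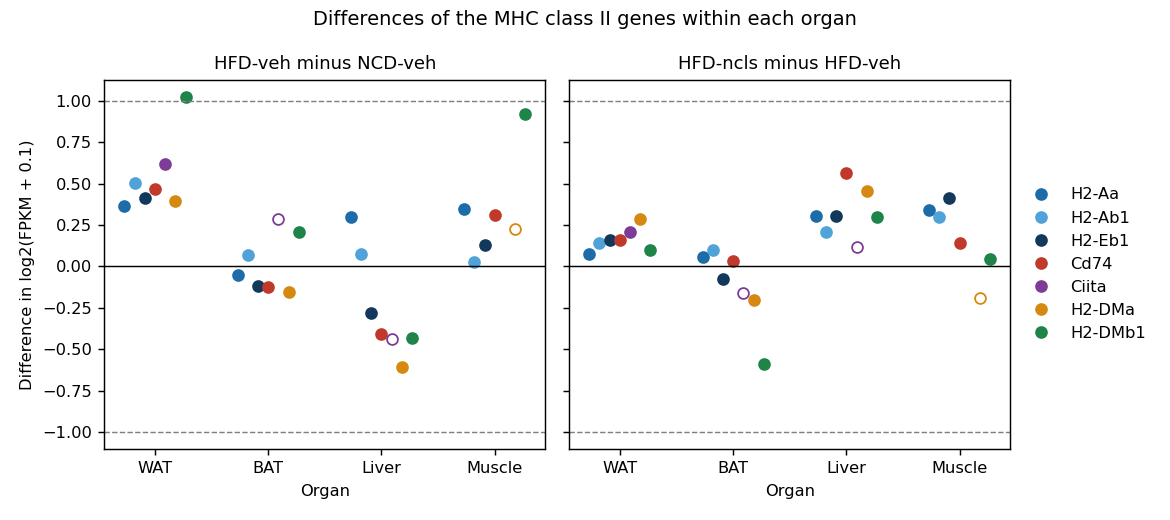
Differences of each class II gene between 2 libraries of an organ (y axis, log2(FPKM + 0.1), dashed lines at 2-fold, open circles for genes under 1 FPKM in both libraries, 1 library per side and so no error bars; Ciita in muscle is left out for its few fragments). In WAT all points of both panels lie above 0, with H2-DMb1 at 1.03 on HFD, whereas in BAT and liver the HFD points fall on both sides of 0.

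A fit over all 12 libraries, added after seeing the data, took organ and group as terms in limma, so that each organ served as a block and 6 residual degrees of freedom remained. It asks for a difference shared by the 4 organs and assumes that they vary alike. For HFD-veh against NCD-veh the estimates ran from -0.08 (Ciita, SE 0.25) to 0.43 (H2-DMb1, SE 0.27) on the log2 scale, with H2-Aa at 0.24 (SE 0.11). For HFD-ncls against HFD-veh they ran from -0.04 (H2-DMb1, SE 0.27) to 0.22 (Cd74, SE 0.15). No member passed in either comparison, at limma adjusted p of 0.676 to 0.978 on HFD and of 1 with ncls, nor did any of 13648 genes (0% called higher in both). At an unadjusted limma p under 0.05 stood 1023 genes (7.5%) on HFD and 348 (2.55%) with ncls, and none of the 7 members in either.

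Adipocyte markers in muscle also differed between groups. The median of 5 adipocyte markers in muscle was Adipoq in each group, at 0.401%, 1.25% and 0.892% of its WAT level and 11.4, 21.1 and 14.3 FPKM. The 5 shares disagreed, running from 0.0441% to 1.82%, from 0.420% to 5.11% and from 0.150% to 5.83%. Cfd in muscle was lower on HFD, at 76.7, 33.4 and 43.9 FPKM. At the Adipoq shares WAT-like tissue would hold 1.45, 5.85 and 4.40 FPKM of H2-Aa, set beside measured levels of 8.33, 10.6 and 13.5. Given the range of the shares, these figures are rough. Macrophage markers moved too, at summed levels of 28.3, 33.4 and 50.3 FPKM. Their part in the class II differences was not tested.

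Leukocyte markers moved with class II in WAT. All 7 pan leukocyte genes were higher in HFD-veh than in NCD-veh WAT (median 0.76), as were 52.7% of all genes, and they summed to 330, 594 and 712 FPKM in the 3 groups. Of 13 macrophage genes 10 were higher and 4 were over 2-fold (5.24% of all genes), and their sum was 849, 1086 and 1370 FPKM. Cd68, a lysosomal protein of macrophages, was at 49.5, 198 and 222 FPKM. Itgax, the integrin CD11c of dendritic cells and of macrophages in obese fat, was at 2.79, 20.4 and 22.7 FPKM, although the dendritic cell list as a whole had a median difference of 0.14. B cell markers went the other way, with 3 of the 4 that reached 1 FPKM over 2-fold lower in HFD-veh (3.87% of all genes) and sums of 11.8, 4.21 and 10.7 FPKM over all 8. T cell markers summed to 27.0, 24.4 and 33.0 FPKM, mostly Thy1, which other cells also express. The part of these cells in the class II differences was not tested.

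Set against leukocyte genes, WAT class II levels depended on the gene used as the reference. H2-Ab1 was 20.9, 22.6 and 21.6 times Ptprc (CD45) and 9.45, 10.4 and 10.4 times Coro1a in WAT, in the same order of groups. Against the other 5 pan leukocyte genes it was lower in HFD-veh than in NCD-veh, for example at 3.18, 2.09 and 1.92 times Tyrobp. The 7 members together were 4.47, 3.41 and 3.13 times the pan leukocyte sum and 1.74, 1.86 and 1.62 times the macrophage sum. Against Cd68 it was 4.82, 1.71 and 1.68 times, since Cd68 differed more between groups. In BAT, H2-Ab1 was 49.1, 36.2 and 47.6 times Ptprc and 7.85, 3.26 and 12.3 times Cd68. In liver it was 20.7, 19.0 and 38.8 times Ptprc, and in muscle 43.7, 43.7 and 41.4 times. WAT, with the most class II RNA, had less H2-Ab1 per Ptprc transcript than BAT and muscle. Ptprc was under 1 FPKM in both, at 0.578, 0.825 and 0.671 in BAT and 0.17, 0.174 and 0.226 in muscle. Against Coro1a no such gap was seen, with H2-Ab1 at 11.9, 8.54 and 11.4 times in BAT and 9.09, 10.4 and 9.39 times in muscle. Coro1a ranked 3 among the genes most like the members in these same libraries (below). A steady ratio to it is therefore not separate evidence. Coro1a was itself under 1 FPKM in muscle. Against the macrophage sum the 7 members were above WAT in BAT, at 2.93, 2.37 and 3.44 times. In muscle they were below WAT, at 1.47, 1.499 and 1.16 times.

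In BAT the leukocyte genes differed more between groups than the class II genes. All 6 pan leukocyte genes that reached 1 FPKM were higher in HFD-veh (median 0.62, where 44.7% of all genes were higher) and all 6 lower again in HFD-ncls (median -0.71, where 54% were lower), with sums of 39.8, 64.8 and 41.9 FPKM. Cd68 was at 3.62, 9.15 and 2.60 FPKM, while the 7 members summed to 198, 188 and 192. In liver, Kupffer cell markers (Cd5l, Clec4f, Vsig4 and Timd4) summed to 64.2, 39.2 and 27.9 FPKM and were lowest in HFD-ncls, the library with the highest class II sum. These relations were not tested.

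**Figure D5:**
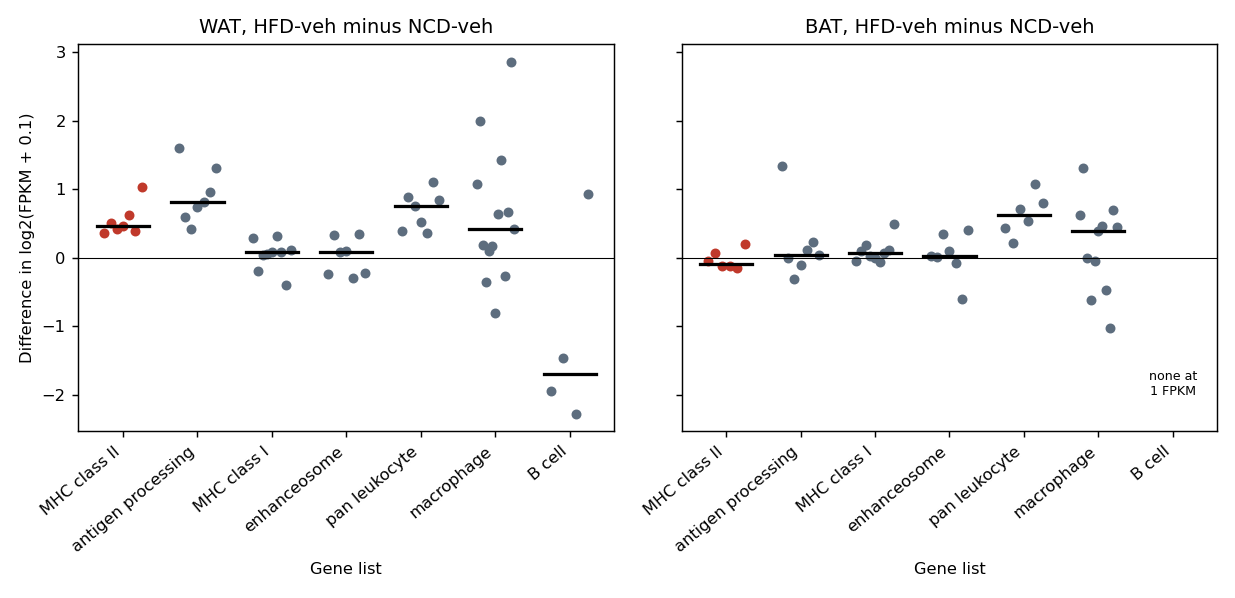
Differences between HFD-veh and NCD-veh in WAT (left) and BAT (right) for 7 gene lists (y axis, log2(FPKM + 0.1), each point a gene that reached 1 FPKM in either library, black bars the list medians, class II members in red). The class II median is 0.47 in WAT and -0.08 in BAT, whereas the pan leukocyte median is 0.76 and 0.62, and no B cell gene reached 1 FPKM in BAT.

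Genes that prepare peptides for class II followed the members in WAT. The list holds endosomal proteases and the thiol reductase Ifi30, and all 7 of its genes were higher in HFD-veh (median 0.82, against 52.7% of all genes) and all 7 higher again in HFD-ncls (median 0.15, against 58.5%). Ctss, cathepsin S, which cleaves the invariant chain, was at 58.4, 177 and 224 FPKM in WAT, a difference of 1.60 on HFD. In BAT it was at 3.98, 10.2 and 4.04 FPKM, differences of 1.33 and -1.31. Its direction there was that of the pan leukocyte genes in both comparisons. Over the lists of other class II chains, peptide processing, class II turnover, promoter factors, interferon gamma and co-stimulation, 3 of 37 genes passed 2-fold upward on HFD in WAT (Ctss, Ifi30 and Irf8; 5.24% of all genes) and none of 38 with ncls (1.49%). In BAT, 2 of 30 rose over 2-fold on HFD (Ctss and Iigp1, 2.28% of all genes) and 2 of 30 fell with ncls (Ctss and H2-DMb2, 1.7%). Apart from Ctss, these were named after their values were seen. In muscle none of 25 passed upward in either comparison (3.14% of all genes on HFD and 1.27% with ncls) or downward (0.97% and 2.53%).

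The promoter-bound factors spanned a narrower range than the class II genes. The highest library was 2.35 times the lowest for Rfx5, 2.23 times for Rfxap and 3.28 times for Rfxank, which form the RFX complex, and 3.92 times for Nfyb, 3.84 times for Creb1 and 10.7 times for Nfya. The same figure was 34.2 to 101 times for the chains, Cd74 and the DM genes. Creb1 (r = 0.973) and Nfya (r = 0.9502) ran parallel to the mean of the 7 members over the 12 libraries, which share organs. For Rfx5 r was 0.759, whereas it was -0.27 for Nfyb, 0.37 for Rfxap, 0.27 for Rfxank and 0.20 for Nfyc. With values centred within each organ, r was -0.46 for Creb1, 0.50 for Nfya and -0.03 for Rfx5. It was then -0.63 for Nfyb, 0.71 for Rfxap, 0.52 for Rfxank and 0.42 for Nfyc. The median difference of the 7 factors between HFD-veh and NCD-veh WAT was 0.09, with 4 higher and 3 lower. Nfyc was listed at 0.000135 FPKM in HFD-veh liver, against 5.53 in NCD-veh and 7.07 in HFD-ncls, an entry that can be a failed estimate and that made it the 1 gene of these lists past 2-fold in liver.

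Genes of the interferon gamma pathway went in both directions in WAT. Of 14 that reached 1 FPKM, 5 were higher and 9 lower in HFD-veh than in NCD-veh (median -0.08), where 52.7% of all genes were higher. Among the 5, Irf8 was at 5.36, 16.2 and 17.5 FPKM and Ifngr2, a receptor chain, at 19.9, 32.2 and 29.1. Ifngr1, the other receptor chain, was at 96.2, 89.6 and 84.8 FPKM, and Jak1, a kinase bound to the receptor, at 45.6, 54.6 and 48.2. Ifng itself was listed at 0.175, 0 and 0 FPKM in WAT and did not exceed 0.175 in any library. Iigp1, a GTPase that interferon gamma induces, was at 13.5, 8.19 and 11.6 FPKM in WAT. In BAT 12 of 13 were higher in HFD-veh than in NCD-veh (median 0.11), where 44.7% of all genes were higher. The median on HFD was -0.05 in liver and 0.01 in muscle. The part of this pathway in the class II differences was not tested.

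March1 and Cd83 were highest in WAT, as the class II genes were. March1, a ubiquitin ligase that removes class II from the surface, was at 3.29, 3.24 and 4.08 FPKM in WAT and at or below 0.313 in the other organs. Cd83, which opposes March1, was at 5.59, 7.84 and 7.52 FPKM in WAT and at or below 1.08 elsewhere. March8, a related ligase, had another pattern, at 18.3, 14.9 and 15.2 FPKM in WAT and 13.8, 19.2 and 16.6 in liver. H2-Oa and H2-Ob, which encode the DM inhibitor DO, were no higher than 1.35 and 1.19 FPKM in any library, and H2-Eb2 no higher than 0.179. Of the co-stimulatory ligands, Icosl was at 4.20, 6.00 and 7.08 FPKM and Cd86 at 3.36, 2.95 and 3.33 in WAT.

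Genes outside the list with the pattern most like that of the members were ranked by Pearson r over the 12 libraries with the mean standardized level of the 7, among 13641 genes, with no p because the points share organs. The 10 nearest were Prcp (r = 0.999), Asap1 (0.998), Coro1a (0.997), Inpp5d (0.996), Ms4a6b (0.996), Cdca4 (0.995), AI607873 (0.995), Traf1 (0.994), Grk6 (0.994) and Pak2 (0.994). Such values were common, with 976 genes at r of at least 0.95. Prcp, a lysosomal carboxypeptidase, was at 13.5, 18.4 and 20.3 FPKM in WAT and kept an r of 0.948 once values were centred within each organ. Coro1a, an actin-binding protein of leukocytes, was at 25.3, 32.7 and 35.8 FPKM in WAT and its r fell to 0.735 on centring. After centring, Prcp alone of the 10 remained among the 10 nearest, and Ucp2, a mitochondrial carrier protein, came first at 0.953.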

How the data were processed

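RNA-seq libraries of 4 organs and 3 groups were used, 1 library each, grouped by the sample labels. Reads had been mapped by the authors to mm9 (TopHat), and the deposited FPKM came from Cufflinks on RefSeq genes, with 1 value per symbol and library. Whether strand was used, and any scaling between libraries beyond FPKM, is not stated. Symbols without a value in a library compared (86 of 22276) were left out there. Members, lists and tests were chosen with earlier results of these data known.

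Differences were taken on log2(FPKM + 0.1), which understates changes of low genes. Genes counted needed 1 FPKM in at least 1 of the libraries. Thresholds of 2-fold and 1.4-fold follow the study, whose p and false discovery rate limits need replicates. A limma fit of organ and group, with a mean-variance trend and Benjamini-Hochberg adjustment, was added after seeing the data. It and the exact permutation test were checked on simulated data. The genes named were the 7 members, up to 3 genes of highest mean FPKM of each list, for the class II lists the gene furthest past 2-fold in each comparison, Ptprc, and the 10 most like the members. Other genes named were chosen after their values were seen. Approximate depths came from steps of low FPKM values, and their precision was not estimated. Start sites came from RefSeq (GRCm38.p6) and gene positions from GENCODE vM1 (mm9). Alternatives changed the pseudocount, filter, scaling, threshold, libraries and measure of likeness. Python 3.11.15, numpy 2.4.6, pandas 2.3.3, matplotlib 3.10.9, R 4.3.3 and limma 3.58.1 were used.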

Additional observations from a re-analysis of the deposited data

Results flagged for a closer look

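The DM genes differed in opposite directions between organs on HFD. H2-DMa was 0.40 higher in HFD-veh than in NCD-veh WAT and 0.61 lower in liver (log2 difference -0.61), so the differences were 1.00 apart on the log2 scale. For H2-DMb1 the difference was 1.03 in WAT and -0.43 in liver, 1.46 apart. Between liver and muscle, where the H2-DMb1 difference was 0.92, the distance was -1.35 (liver minus muscle). With 1 library per organ and group, the difference between organs was not tested in any of the 3. H2-DMb1 was at 0.494 FPKM in NCD-veh muscle, and its reads could be shared with H2-DMb2.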

How the results depend on the processing

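No paired analysis was possible because the labels give no replicate numbers, other than the limma fit with the organ as block, which called 0 members in both comparisons. It called 0 again with a pseudocount of 1, after rescaling, without the 3 libraries named below and without each organ in turn, with adjusted p of at least 0.574 (HFD) and 0.998 (ncls). Of 168 alternatives for differences of single members between 2 libraries, 162 kept their direction and side of 2-fold and none turned past it. The exceptions were H2-DMb1 in HFD-veh WAT (0.99 rescaled, and also under 2-fold with a pseudocount of 1), H2-Ab1 in HFD-veh muscle (-0.00134 rescaled) and, with a pseudocount of 0.01, H2-DMb1 in HFD-veh muscle (1.03) and Ciita in both muscle comparisons, which passed 2-fold. A threshold of 1.4-fold moved the number of members past it to 3 on HFD in WAT, and to 1 on HFD in liver and in muscle and with ncls in BAT and in liver. In the exact permutation test of adipose tissue, HFD libraries alone gave log2 differences of 3.23 (H2-Aa), 3.22 (H2-Ab1), 3.40 (H2-Eb1), 3.14 (Cd74), 2.68 (Ciita), 2.65 (H2-DMa) and 2.98 (H2-DMb1), each at an adjusted p of 0.112, in a design whose 70 splits allow no raw p below 0.0286. Without the HFD-veh muscle, HFD-veh BAT and HFD-ncls WAT libraries, Ciita (2.10) and H2-DMb1 (2.72) were at an adjusted p of 0.0714. The other 5 were at 0.0446. Without the WAT libraries, chosen after seeing the data, the differences were 1.68 (H2-Aa), 1.48 (H2-Ab1), 1.87 (H2-Eb1), 1.47 (Cd74), 0.84 (H2-DMa) and 0.96 (H2-DMb1). Of the 10 genes most like the members, Spearman rho kept 2, centring within organs 1 and a pseudocount of 1 kept 5. The cause of these shifts was not tested beyond the smaller number of libraries. Depth limited Ciita outside WAT.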
